A study of Mus musculus with 69 samples.

Results

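The genes described are the 5 that make, modify, break down or sense oxysterols around the enzyme cholesterol 25-hydroxylase, namely Ch25h, Cyp7b1, Hsd3b7, Cyp27a1 and Gpr183. They were taken by symbol from the 24537 genes listed in each of the 3 expression tables of mouse bone marrow-derived macrophages (BMDMs), and from the 24527 genes of each F1 allele table. BMDMs are macrophages grown from bone marrow cells with the growth factor M-CSF. They came from female mice aged 8 to 12 weeks and were left untreated (basal) or stimulated with 20 ng/ml of interleukin-4 (IL-4), the cytokine of alternative macrophage activation. Of the 69 samples, 29 were libraries from the wild-derived inbred strains SPRET/EiJ (SPRET) and PWK/PhJ (PWK) and the laboratory strains NOD/ShiLtJ (NOD), BALB/cJ (BALB) and C57BL/6J (C57), under basal conditions and after 24 h of IL-4, with 3 libraries per group except for 2 of basal PWK. C57 and SPRET were also followed over time, at basal and after 1, 6 and 24 h of IL-4, in 16 libraries, 2 per group. Another 16, also 2 per group, covered the same times in BMDMs of Egr2 fl/fl mice (Egr2WT) and of LyzM-Cre Egr2 fl/fl mice (Egr2MKO). In Egr2MKO a Cre driven by a myeloid promoter removes Egr2, and both groups carry the floxed alleles. The labels name the Cre in Egr2MKO only, so effects of the Cre and of the loss of Egr2 cannot be told apart. The other 8 were F1 hybrids of C57 with NOD or SPRET, 2 libraries per cross for basal and 24 h of IL-4, in which reads over strain variants were divided between the alleles.

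Oxysterols are oxidized forms of cholesterol that carry signals within and between cells. Ch25h adds a hydroxyl group to the side chain of cholesterol, and its transcript is known in macrophages for its fast induction by inflammatory stimuli. Cyp27a1, a mitochondrial enzyme, makes another side-chain oxysterol. Cyp7b1 hydroxylates the ring of these products and so makes the strongest ligands of Gpr183, also called EBI2, a receptor that steers migrating B cells, dendritic cells and other immune cells. Hsd3b7 converts those ligands further and ends their activity at the receptor. Inside the cell, oxysterols activate the LXR nuclear receptors and hold back SREBP2, the regulator of cholesterol synthesis.

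The genes lie apart in the mouse genome (build mm10). Ch25h, a gene without introns, lies at chr19:34473784-34475135 on the minus strand, Cyp7b1 at chr3:18071950-18243338 on the minus strand, Hsd3b7 at chr7:127800609-127803802 on the plus strand, Cyp27a1 at chr1:74713535-74737897 on the plus strand and Gpr183 at chr14:121952331-121965193 on the minus strand, within the span of Ubac2. The exons of Ch25h share 11.5% of their bases with those of the opposite-strand transcript Gm26902. Those of Hsd3b7 share 62.0% with the same-strand gene Gm49388 and 62.4% with 9430064I24Rik on the other strand, so the reads of Hsd3b7 may be divided among these genes. The strand setting used in counting is not given in the sources used here. RefSeq promoters (GRCm38.p6, the same build) matched 4 of the 5 genes, and none matched Cyp7b1. The 250 bases before the start are shown 5′ to 3′ for Ch25h and Gpr183, whose transcripts rose with IL-4, and for Hsd3b7, whose transcript stayed near its basal level, with motif matches in capitals. Ch25h lies at chr19:34475149-34475398 on the minus strand, Gpr183 at chr14:121965194-121965443 on the minus strand and Hsd3b7 at chr7:127800359-127800608 on the plus strand.
Ch25h: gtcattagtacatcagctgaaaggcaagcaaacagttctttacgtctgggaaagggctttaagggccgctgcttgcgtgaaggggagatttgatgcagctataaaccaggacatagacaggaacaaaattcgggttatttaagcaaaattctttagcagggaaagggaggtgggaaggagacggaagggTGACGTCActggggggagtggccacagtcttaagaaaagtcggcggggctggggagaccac
Gpr183: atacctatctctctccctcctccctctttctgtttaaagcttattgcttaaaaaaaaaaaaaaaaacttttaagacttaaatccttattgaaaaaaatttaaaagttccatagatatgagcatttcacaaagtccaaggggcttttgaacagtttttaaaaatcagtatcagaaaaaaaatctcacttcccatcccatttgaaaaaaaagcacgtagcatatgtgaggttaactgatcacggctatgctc
Hsd3b7: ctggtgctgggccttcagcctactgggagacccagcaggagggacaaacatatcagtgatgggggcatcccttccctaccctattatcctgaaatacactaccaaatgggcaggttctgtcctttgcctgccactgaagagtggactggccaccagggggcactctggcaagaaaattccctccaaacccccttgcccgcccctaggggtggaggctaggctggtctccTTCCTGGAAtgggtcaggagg
The capitals in the Ch25h promoter mark 1 match to the cAMP response element TGACGTCA, 61 to 54 bases before the start, a motif present in 1.79% of all 32851 promoters of the same 300 bases (250 before to 50 after the start). The capitals in the Hsd3b7 promoter mark 1 match to the STAT motif TTCNNNGAA, 21 to 13 bases before the start, a motif found in 8.30% of all promoters. Searched on both strands, the STAT6 motif TTCNNNNGAA (6.95% of all promoters), the EGR motif GCGTGGGCG (0.612%), the PU.1 motif GAGGAAGT (3.20%), the AP-1 motif TGANTCA (7.81%) and the LXR motif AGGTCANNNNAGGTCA (0.0152%) had no match in the 300 bases of the 4 genes, and Cyp27a1 and Gpr183 matched none of the 7 motifs. These matches describe letters and not binding.

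Levels are deposited TPM values, a measure of transcript abundance relative to all transcripts of a library that allows for transcript length. Tests were made with limma on log2(TPM + 1), with p-values adjusted by the Benjamini-Hochberg method over all genes tested, and a gene is said to rise or fall where it changed more than 2-fold at an adjusted p below 0.05. Differences are on this log2 scale, which understates the change of genes near or below 1 TPM, so ratios of mean TPM are given beside the rises of Ch25h and the 24 h rises of Gpr183 in the 5 strains. Libraries held about 4690000 to 32900000 tags. The labels number the replicates and do not say that they are separate cultures, although the methods call them biological, so p-values measure the spread between these libraries. All 8 macrophage markers were listed in each table, with a sum of 11020 to 54480 TPM, of which Lyz2 alone was at 5278 to 48274 TPM. Not every marker reached 1 TPM in every library. Fcgr1 went down to 0 TPM in the time course, and in the 5 strains Fcgr1 went down to 0.265 TPM and Mertk to 0.569 TPM. B cell markers summed to at most 6.60 TPM and T cell markers to at most 3.35 TPM, those of dendritic cells to at most 8.52 TPM and those of mast cells and basophils to at most 21.7 TPM. Egr2 itself was at 21.3 to 101 TPM in Egr2WT libraries and at 0.854 to 7.05 TPM in Egr2MKO libraries, with no overlap. In such bulk samples, fewer cells that express a gene and less RNA per cell cannot be told apart.

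Ch25h, the enzyme at the head of the pathway, was low under basal conditions and rose after 24 h of IL-4 in each of the 5 strains, but the level reached differed widely between them. In C57 the libraries were at 0.652, 0.742 and 0.735 TPM under basal conditions and at 29.7, 30.0 and 28.6 TPM after IL-4, a rise of 4.15 ± 0.11 (log2, SE; adjusted p = 2.7e-20) and a ratio of mean TPM of 41.5. In BALB the values went from 0.168, 0.049 and 0.136 TPM to 2.17, 1.98 and 1.75 TPM. In NOD they went from 0.393, 0.814 and 0.459 TPM to 2.60, 3.26 and 2.51 TPM. The highest IL-4 library of these 2 strains was at 3.26 TPM, and the lowest of the other 3 strains at 28.6 TPM. The PWK libraries went from 3.25 and 3.28 TPM to 39.2, 54.2 and 46.3 TPM. The SPRET libraries went from 5.03, 4.69 and 4.04 TPM to 36.9, 33.2 and 37.3 TPM. The wild-derived strains thus started above C57 and ended near or above it. Basal and IL-4 libraries did not overlap in any strain, and the rise was 1.41 in BALB (adjusted p = 1.1e-10), 1.29 in NOD (1.1e-09), 3.47 ± 0.12 in PWK (2.4e-17) and 2.72 in SPRET (6.9e-17). Ratios of mean TPM were 16.7, 5.03, 14.3 and 7.81 in the same order, where the BALB ratio rests on basal values close to 0.

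Across the 5 genes and 5 strains, 8 of 25 tests were past the threshold, all of them rises, of Ch25h in 5 strains and of Gpr183 in 3. These 25, and each set of 20 tests against C57 below, include Cyp7b1. That gene reached 1 TPM in 2 libraries, as testing required, only in SPRET after IL-4, so its tests are no support. Of all genes tested, the share past the threshold was 3.80% for C57, 2.08% each for BALB and PWK, 1.19% for NOD and 3.94% for SPRET. The scatter plot by strain shows each library of the 5 genes.

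**Figure D1:**
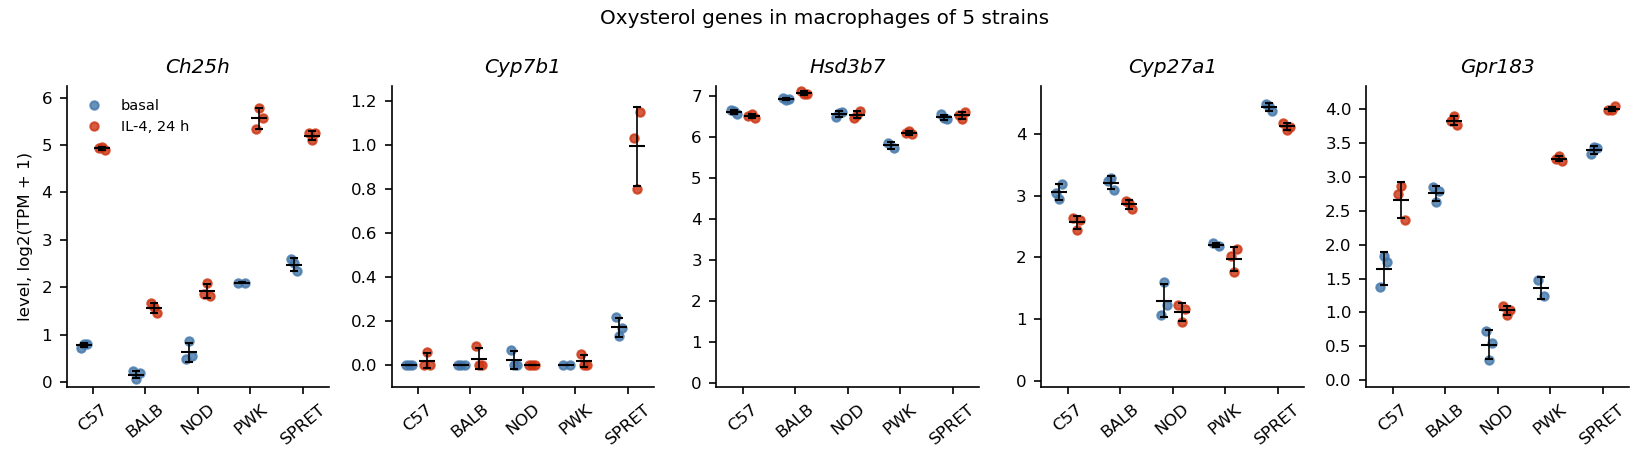
Levels of the 5 genes on the log2(TPM + 1) axis in each strain under basal conditions and after 24 h of IL-4, with 1 point per library and bars at the mean ± SD of 3 libraries (2 for PWK basal). Ch25h separates by IL-4 in all strains with mean levels of 1.97 and 2.79 TPM after IL-4 in BALB and NOD against 29.4 to 46.6 TPM in the others, while Hsd3b7 differs more between strains than with IL-4.

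The size of the Ch25h response itself differed between strains. The response minus that in C57 was −2.75 ± 0.15 in BALB (log2, SE; adjusted p = 2.0e-12), −2.86 in NOD (4.7e-13) and −1.43 in SPRET (5.3e-08), and these are 3 of the 20 tests of the genes that were past the threshold. The shares of all genes with such a difference were 1.49% for BALB, 2.47% for NOD, 2.26% for PWK and 3.45% for SPRET. The PWK response differed from that in C57 by −0.69 ± 0.16 (adjusted p = 0.0028), under 2-fold. Much of the separation between C57 and the wild-derived strains depends on how values under 1 TPM are weighted. With a pseudocount of 5 TPM, the difference was 0.04 in PWK and −0.50 in SPRET, and with 0.1 TPM it was −1.41 in PWK (adjusted p = 0.0010), past the threshold, and −2.25 in SPRET, whereas it ranged from −2.77 to −1.91 in BALB and from −3.01 to −2.10 in NOD over the alternative settings.

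Before IL-4, the order of Ch25h was SPRET, PWK, C57, NOD and BALB, and only C57 and NOD were not separated from each other (0.15, adjusted p = 0.22). SPRET was above C57 by 1.71 (2.8e-13) and PWK by 1.32 (6.1e-10). SPRET was above PWK by 0.39 (0.0054), and NOD above BALB by 0.47 (3.4e-04). BALB minus C57 was −0.61 (3.8e-05), which is under 2-fold on this scale and −1.94 with a pseudocount of 0.1 TPM (1.0e-08), past the threshold. After 24 h the order was PWK, SPRET, C57, NOD and BALB. The step from C57 to NOD was 3.01 (4.2e-18), while the other neighbours differed by 0.27 to 0.36 (adjusted p of 0.024, 0.0038 and 0.0056). Of the 20 basal tests of the 5 genes against C57, 7 were past the threshold, beside 4.81% of all genes for BALB, 16.9% for NOD, 13.3% for PWK and 18.1% for SPRET. These were Ch25h in PWK and SPRET, Gpr183 in BALB, NOD and SPRET, and Cyp27a1 in NOD and SPRET.

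In the time course, Ch25h was among the early responders in both strains and then separated them. In C57 it went from 1.43 and 1.19 TPM to 113 and 106 TPM at 1 h, 59.2 and 59.7 TPM at 6 h, and 94.5 and 89.7 TPM at 24 h. In SPRET it went from 2.14 and 3.64 TPM to 136 and 125 TPM at 1 h, then to 24.3 and 21.9 TPM at 6 h and to 19.7 and 15.9 TPM at 24 h. The strains were close at 1 h, and at 6 and 24 h no SPRET library reached a C57 library. The rise over basal was 5.58, 4.71 and 5.33 at 1, 6 and 24 h in C57 (adjusted p of 3.8e-10, 6.7e-10 and 1.2e-10) and 5.10, 2.66 and 2.29 in SPRET (2.6e-10, 4.0e-08 and 1.2e-07). Ratios of mean TPM were 83.7, 45.4 and 70.4 in C57 and 45.0, 7.98 and 6.15 in SPRET. The C57 profile had a dip, short of 2-fold, of −0.87 from 1 to 6 h (adjusted p = 0.0015) and a return of 0.62 from 6 to 24 h (0.0064). SPRET fell by 2.45 from 1 to 6 h (1.7e-07) and differed by −0.36 from 6 to 24 h (0.10).

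The response of SPRET minus that of C57 was −0.48 ± 0.21 at 1 h (95% interval −0.94 to −0.02, adjusted p = 0.41), −2.06 at 6 h (4.6e-05) and −3.04 at 24 h (7.6e-07). The shares of all genes with such a difference were 0.811%, 2.40% and 6.22%, and among the 5 genes Ch25h at 6 and 24 h gave the 2 that were past the threshold out of 12 tests. In level, SPRET was above C57 by 0.73 at basal (9.8e-04) and 0.25 at 1 h (0.17), and below it at 6 h (−1.33, 6.6e-06) and 24 h (−2.31, 3.1e-08). The 24 h order therefore differed from that in the 5-strain libraries, where SPRET was above C57 by 0.27, and C57 at 24 h was at 89.7 to 94.5 TPM here against 28.6 to 30.0 TPM there. The tables were fitted separately and this difference between them was not tested. The smaller SPRET response at 24 h was seen in both tables.

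**Figure D2:**
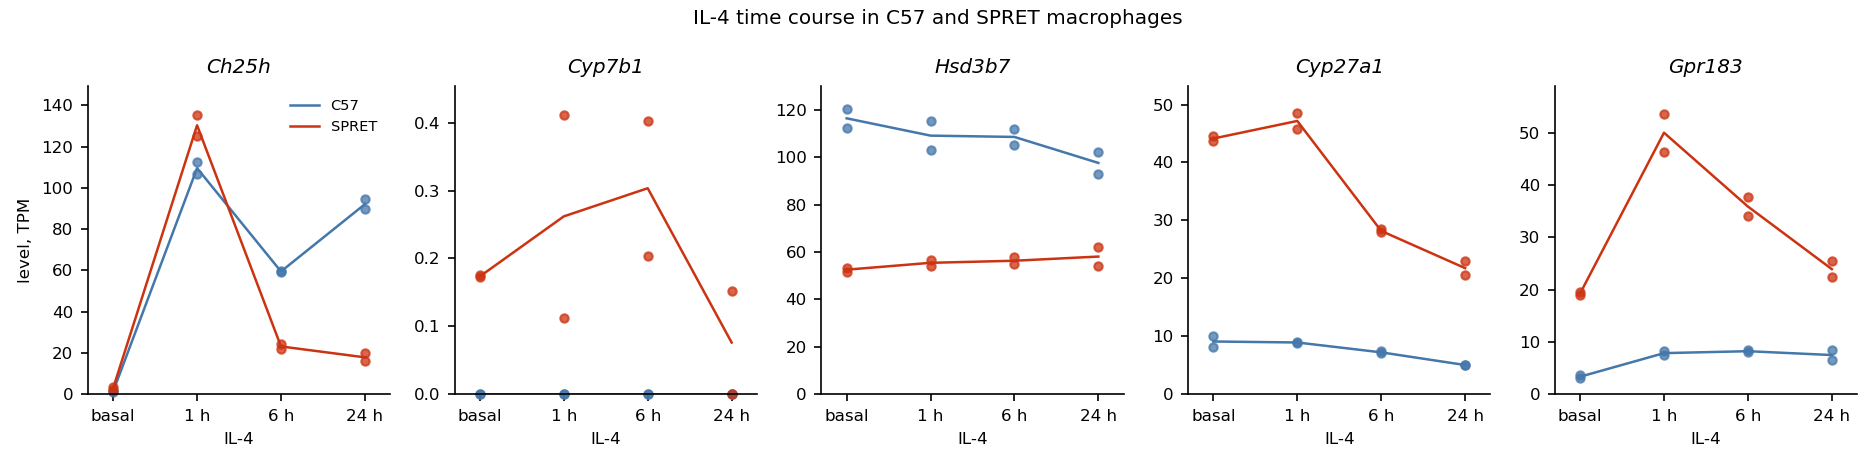
Levels of the 5 genes in TPM against hours of IL-4 in C57 and SPRET, with 1 point per library and lines through the mean of the 2 libraries. Ch25h starts at 1.19 to 3.64 TPM, reaches 106 to 136 TPM in both strains at 1 h, and is 89.7 to 94.5 TPM in C57 and 15.9 to 19.7 TPM in SPRET at 24 h.

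Cyp27a1, the other side-chain hydroxylase, moved the opposite way and by less. After 24 h of IL-4 it was lower in C57, from 7.26, 6.67 and 8.13 TPM to 5.23, 4.43 and 5.11 TPM, a difference of −0.50 (adjusted p = 8.7e-04). It was also lower in BALB (−0.35, 0.017) and SPRET (−0.31, 0.023), and differed by −0.19 in NOD and −0.23 in PWK (both 0.19). None of these was 2-fold. Over time it was lower in C57 at 24 h (−0.74, 3.2e-05), from 10.1 and 8.09 TPM to 5.09 and 4.95 TPM. In SPRET it was lower at 6 h (−0.63, 1.5e-04) and at 24 h (−0.99, 2.4e-06), from 44.6 and 43.6 TPM to 23.0 and 20.5 TPM, just short of 2-fold. Without replicate 1 of the SPRET 24 h group the last value was −1.07, and without replicate 2 of SPRET basal it was −1.01, both past 2-fold. At 1 h the level was within 0.09 of basal in both strains.

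Between strains, Cyp27a1 spanned a wider range. SPRET was highest under basal conditions at 21.2, 21.0 and 19.7 TPM, above C57 by 1.37 (4.0e-11) and above BALB, the next, by 1.23 (3.1e-10). BALB at 8.43, 8.77 and 7.51 TPM was not separated from C57 (0.15, adjusted p = 0.31). PWK at 3.67 and 3.53 TPM was below C57 (−0.86, 1.6e-06), under 2-fold. NOD was lowest at 1.10, 2.02 and 1.34 TPM, below C57 (−1.76, 3.7e-13, and −0.93 with a pseudocount of 5 TPM). The order held after 24 h of IL-4, with 15.7 to 17.1 TPM in SPRET and 0.930 to 1.34 TPM in NOD, and the time course had SPRET above C57 by 2.17 under basal conditions. Ch25h and Cyp27a1 thus differed in order, since PWK was high for the first enzyme and low for the second.

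Cyp7b1, which would turn either product into a ligand of Gpr183, was close to absent. It was listed at 0 in all basal libraries of the 5-strain table except 1 of NOD at 0.049 TPM and the 3 of SPRET at 0.161, 0.095 and 0.122 TPM. After 24 h of IL-4 it was at 1.05, 0.740 and 1.22 TPM in SPRET and at most 0.060 TPM in any library of the other strains. The SPRET difference was 0.82 on the log2(TPM + 1) scale, under 2-fold there, with a ratio of mean TPM of 7.95. Only these SPRET IL-4 libraries carried the gene past the filter of 1 TPM in 2 libraries, so the difference is given with no test as support. In the time course SPRET libraries were at 0.175 and 0.172 TPM at basal, 0.412 and 0.112 TPM at 1 h, 0.204 and 0.403 TPM at 6 h, and 0.152 and 0 TPM at 24 h, so that the higher level at 24 h was not seen there. All C57 time course libraries, and all Egr2WT and Egr2MKO libraries except 1 of Egr2MKO at 24 h (0.126 TPM), were listed at 0. At values this low the gene was not tested in those tables.

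Hsd3b7, the enzyme that inactivates the Gpr183 ligands, was the most abundant of the 5 genes by TPM in every group of the 5-strain table and stayed near its basal level. Group means ran from 54.7 ± 3.6 TPM in PWK basal libraries (SD, n = 2) to 134.7 ± 4.4 TPM in BALB after IL-4 (SD, n = 3). With 24 h of IL-4 it differed from basal by 0.30 in PWK (adjusted p = 4.1e-04), 0.15 in BALB (0.031), −0.10 in C57 (0.16), 0.05 in SPRET and −0.01 in NOD, none near 2-fold. Across strains, PWK was the lowest, below C57 under basal conditions (−0.82, 9.7e-12), with libraries at 57.3 and 52.2 TPM against 93.7 to 100 TPM. BALB was the highest, above C57 by 0.31 (3.6e-05), and C57 did not separate from NOD (0.06, 0.33), nor NOD from SPRET (0.08, 0.18). Followed over time, SPRET libraries lay at 51.8 to 62.1 TPM and C57 libraries at 92.8 to 120 TPM at all times. The basal difference there was −1.13 ± 0.08 (8.1e-08), against −0.14 (0.026) in the 5-strain table. Reads of this gene can be divided with those of overlapping genes, as given above, and the part of this in the difference between tables was not tested.

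Gpr183, the receptor, rose with IL-4 in 3 strains and differed widely between strains before it. Under basal conditions SPRET had 9.08, 9.85 and 9.75 TPM, BALB 6.19, 5.22 and 5.91 TPM, C57 1.59, 2.56 and 2.34 TPM, PWK 1.78 and 1.37 TPM, and NOD 0.649, 0.230 and 0.457 TPM. After 24 h of IL-4 the libraries were at 15.0, 14.9 and 15.5 TPM in SPRET, 13.2, 13.9 and 12.7 TPM in BALB, and 5.71, 6.29 and 4.15 TPM in C57. PWK reached 8.61, 8.91 and 8.42 TPM, and NOD 1.14, 0.942 and 1.05 TPM. IL-4 and basal libraries did not overlap in any strain. The rise was 1.91 in PWK (adjusted p = 2.9e-11), 1.08 in BALB (1.0e-07) and 1.01 ± 0.12 in C57 (1.6e-07). The C57 value was 0.97, 0.91 and 0.87 without replicate 1 or 2 of C57 at 24 h or replicate 1 of C57 basal, so its place above 2-fold rested on single libraries. The differences of 0.61 in SPRET (1.6e-04) and 0.51 in NOD (0.0019) were past the adjusted p and under 2-fold on this scale. As ratios of mean TPM, the responses were 5.50 in PWK, 2.49 in C57, 2.34 in NOD, 2.30 in BALB and 1.58 in SPRET. NOD, which lay below 1 TPM at basal, was thus close to C57 by ratio, and with a pseudocount of 0.1 TPM its difference was 1.14 (1.1e-04), past the threshold. On the log2(TPM + 1) scale, the response minus that in C57 was 0.90 in PWK (6.5e-04), −0.50 in NOD (0.024, and −0.14 with a pseudocount of 0.1 TPM, adjusted p = 0.74), 0.06 in BALB (0.86) and −0.40 in SPRET (0.068). A pseudocount of 5 TPM took the rise to 0.53 in C57 and 0.76 in BALB, under 2-fold.

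With IL-4, PWK went from the fourth place among the strains to the third in Gpr183. The basal order was SPRET, BALB, C57, PWK and NOD, in which C57 and PWK did not separate (0.29, adjusted p = 0.063), and BALB was above C57 by 1.11 (2.9e-08) and NOD below it (−1.13, 6.3e-09). Without replicate 1 of C57 basal, BALB was above C57 by 0.97, and a pseudocount of 5 TPM took these basal differences to 0.59 in BALB and −0.39 in NOD. After IL-4, PWK was above C57 by 0.61 (8.7e-05), and SPRET and BALB were not separated (0.18, 0.18). BALB, with a high receptor level, was the strain lowest in Ch25h, and NOD was at or near the bottom for both genes and for Cyp27a1.

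The receptor was already higher at 1 h. C57 went from 3.04 and 3.62 TPM to 7.40 and 8.29 TPM at 1 h, 8.41 and 8.01 TPM at 6 h, and 6.48 and 8.47 TPM at 24 h, with log2 differences of 1.03, 1.09 and 0.96 (adjusted p at 24 h of 4.5e-05, under 2-fold). SPRET went from 19.0 and 19.6 TPM to 53.7 and 46.4 TPM at 1 h, and then stepped down to 37.8 and 34.0 TPM at 6 h and 25.5 and 22.4 TPM at 24 h. Its differences were 1.33, 0.86 (1.4e-04) and 0.30 (0.076), and from 1 to 24 h it fell by 1.03 (2.8e-05). That later step in SPRET minus that in C57 was −0.96 for Gpr183 (0.0012) and −2.56 for Ch25h (3.2e-06). The C57 call at 1 h was lost with the groups of the comparison alone (1.03, adjusted p = 0.056) and with a pseudocount of 5 TPM (0.63), as was that at 6 h with the latter (0.67). The C57 values also crossed 2-fold when 1 library was left out, to 0.96 at 1 h without replicate 2 of that time and 0.94 without replicate 1 of basal, to 0.997 at 6 h without replicate 1 of basal, and to 1.13 at 24 h without replicate 1 of that time and 1.06 without replicate 2 of basal. SPRET was above C57 by 2.23 at basal (7.5e-09).

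Over both strains and 3 times, 9 of the 24 tests of the genes against basal were past the threshold, 6 of Ch25h and 3 of Gpr183, all upward. Of all genes, 0.877%, 2.13% and 5.76% passed it in C57 at 1, 6 and 24 h, and 1.89%, 4.57% and 5.62% in SPRET. The plot of log2 differences by time and strain sets these changes of the 4 tested genes on 1 scale.

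**Figure D3:**
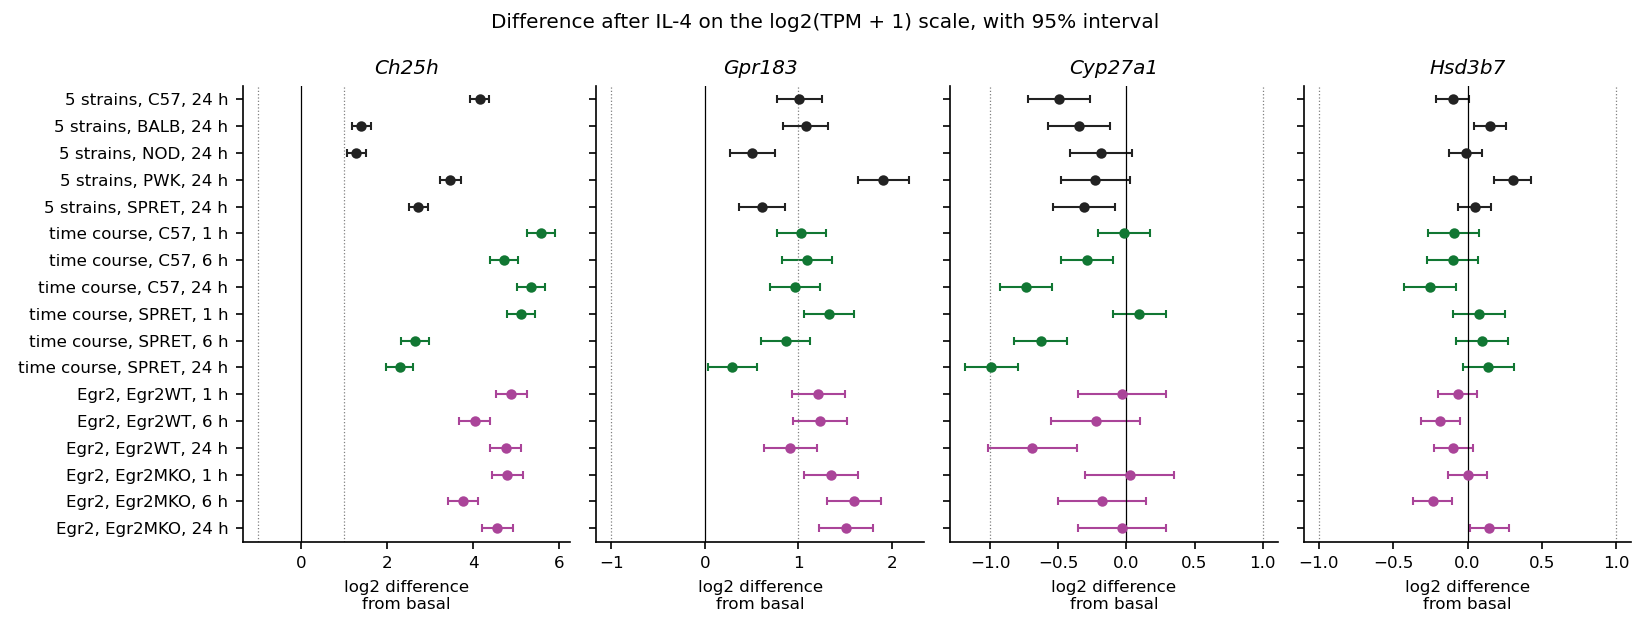
Difference from basal after IL-4 on the log2(TPM + 1) scale for Ch25h, Gpr183, Cyp27a1 and Hsd3b7, with 1 point per group of the 5 strains, the time course and the Egr2 libraries, bars for the 95% interval of the limma fit and dotted lines at a 2-fold change. Ch25h lies at 1.29 to 5.58, Gpr183 at 0.30 to 1.91, Cyp27a1 in the 24 h groups of the time course and the Egr2 libraries at −0.74 in C57, −0.99 in SPRET, −0.69 in Egr2WT and −0.03 in Egr2MKO, and Hsd3b7 within 0.30 of 0.

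Egr2 encodes a transcription factor that IL-4 itself induces. Egr2WT was compared with Egr2MKO, which has less Egr2 transcript and also carries the Cre. Ch25h rose at all 3 times in both genotypes. In Egr2WT it went from 0.708 and 0.652 TPM to 49.8 and 47.3 TPM at 1 h, 25.5 and 27.9 TPM at 6 h, and 42.8 and 45.8 TPM at 24 h. In Egr2MKO it went from 0.896 and 0.787 TPM to 48.3 and 52.0 TPM, 21.8 and 26.4 TPM, and 33.5 and 53.7 TPM. The genotypes overlapped at 1, 6 and 24 h, and the 24 h values of Egr2MKO lay on both sides of those of Egr2WT. The rise was 4.88, 4.04 and 4.75 in Egr2WT and 4.80, 3.76 and 4.56 in Egr2MKO, with ratios of mean TPM of 71.4, 39.2 and 65.2 and of 59.6, 28.7 and 51.8. At 24 h the level in Egr2MKO minus that in Egr2WT was −0.06 ± 0.16 (95% interval −0.42 to 0.30, adjusted p = 0.81), and the response differed by −0.19 (−0.70 to 0.32, 0.68).

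Gpr183 went from 5.53 and 6.11 TPM to 15.7 and 14.0 TPM at 1 h, 14.6 and 15.4 TPM at 6 h, and 10.5 and 13.4 TPM at 24 h in Egr2WT. In Egr2MKO it went from 4.47 and 4.57 TPM to 12.8 and 13.4 TPM, 13.8 and 17.9 TPM, and 13.7 and 15.7 TPM. At 24 h both Egr2MKO libraries were above both Egr2WT libraries, and before IL-4 both were below. The rise was 1.22 and 1.23 at 1 and 6 h in Egr2WT, followed by 0.92 at 24 h (adjusted p = 2.0e-04, and 1.08 without replicate 1 of that time), and 1.35, 1.60 and 1.51 in Egr2MKO. The 24 h response was larger in Egr2MKO by 0.59 ± 0.19, which missed the threshold (0.060).

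Cyp27a1 at 24 h gave the largest difference among the 16 tests of the genes between genotypes. In Egr2WT it was at 10.2 and 10.8 TPM before IL-4 and at 6.24 and 6.01 TPM after 24 h, a difference of −0.69 (adjusted p = 0.0038). In Egr2MKO it was at 11.2 and 12.7 TPM and then at 11.8 and 11.5 TPM, a difference of −0.03 (0.91). At 24 h the Egr2MKO level was thus above that of Egr2WT by 0.83 ± 0.15 (9.6e-04), under 2-fold, while the test of the 24 h response itself gave 0.66 ± 0.21 and missed the threshold (0.064). Both Egr2MKO libraries were also above both Egr2WT libraries at basal and at 1 h (12.1 and 12.1 against 9.47 and 11.1 TPM). At 6 h the genotypes overlapped, with Egr2MKO at 12.9 and 8.38 TPM and Egr2WT at 9.26 and 8.43 TPM. Hsd3b7 stayed within 0.25 of basal in either genotype, and was lower in Egr2MKO before IL-4 (−0.20, 0.049) and at 6 h (−0.25, 0.011).

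Against basal, 11 of 24 tests in these libraries were past the threshold, 6 of Ch25h and 5 of Gpr183, beside 0.778%, 2.86% and 4.35% of all genes at 1, 6 and 24 h in Egr2WT and 0.902%, 3.70% and 4.83% in Egr2MKO. None of the 16 tests between genotypes was past it by limma, where 3 had an adjusted p and 6 an unadjusted p below 0.05. Of all genes, 11.4% to 37.4% had an adjusted p below 0.05 in these 4 comparisons, and the share past the threshold was 0.853% at basal, 1.06% at 1 h, 2.30% at 6 h and 4.55% at 24 h. Of the 12 tests of the response between genotypes none was past it either, with 3 at an unadjusted p below 0.05, and the shares of all genes were 0.00828%, 0.207% and 1.90%.

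**Figure D4:**
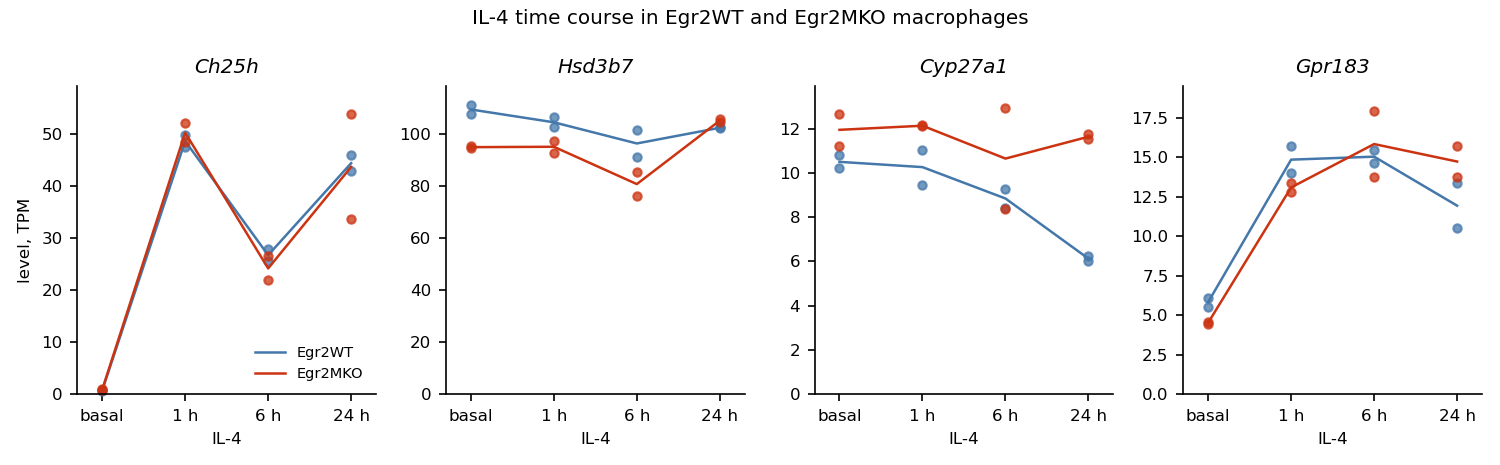
Levels of Ch25h, Gpr183, Cyp27a1 and Hsd3b7 in TPM against hours of IL-4 in Egr2WT and Egr2MKO BMDMs, with 1 point per library and lines through the mean of 2 libraries. The Ch25h lines run together. Cyp27a1 is higher in Egr2MKO without overlap at basal, 1 h and 24 h and overlaps at 6 h. The gap is widest at 24 h, at 6.01 to 6.24 TPM in Egr2WT and 11.5 to 11.8 TPM in Egr2MKO.

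F1 hybrids carry both alleles in 1 nucleus. Each allele value is the gene's value times the share of its variant-spanning reads that fell on that allele, times a weight of 10, and the number of reads behind it is not given, so these are levels with no test and cannot be set beside the TPM above. In C57xSPRET, the C57 allele of Ch25h was listed at 0 in both basal libraries and was at 11.2 and 12.1 after 24 h of IL-4. The SPRET allele was at 3.85 and 1.12 under basal conditions and at 0.978 and 8.45 after IL-4. The C57 share after IL-4 was therefore 91.9% in 1 library and 58.8% in the other. Before IL-4 only the SPRET allele was seen, and after it C57 was the higher allele in both libraries, while the 2 libraries disagree on how far. The log2 of C57 over SPRET was 3.51 and 0.51 in the F1 libraries after IL-4. Between the parental strains it was −0.28 in the libraries that also covered BALB, NOD and PWK. In the time course, mean Ch25h at 24 h was 92.1 TPM in C57 and 17.8 TPM in SPRET. C57 was thus the higher parent there, and the direction between the parents differed between these sets of libraries.

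The other genes were closer to balance between alleles in C57xSPRET. Hsd3b7 had a C57 share of 55.0% and 55.1% before and of 49.8% and 53.1% after IL-4. Cyp27a1 had a C57 share of 43.7% to 45.8%, a log2 of C57 over SPRET of −0.36 to −0.25, against −1.49 before and −1.74 after IL-4 between the parents. Its mean over both alleles went from 16.8 to 7.98 with IL-4, the direction seen in the inbred strains. Gpr183 had a C57 share of 39.8% to 45.3%, a log2 of −0.59 to −0.27, against −2.15 before and −1.49 after IL-4 between the parents. Its mean over both alleles was 22.4 and 23.2 before IL-4 and 9.56 and 8.71 after it, lower where both parents were higher. Cyp7b1 did not exceed 0.04 in any column.

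In C57xNOD, Ch25h, Cyp7b1, Hsd3b7 and Cyp27a1 were listed at 0 in every column, so this cross gave no value for them. The share of all genes listed at 0 was 78.9% to 83.6%, depending on the column. Gpr183 alone had values, with means over both alleles of 9.80 and 12.5 before IL-4 and of 0 (both alleles listed at 0) and 9.45 after it. Its C57 share was 63.2% and 65.7% before IL-4 and 41.9% in the other IL-4 library. Arg1, an IL-4 target used here to check the labels, was higher after IL-4 in both crosses, at 244 and 318 before and 9362 and 9264 after in C57xNOD and at 0.274 and 0.303 before and 51.6 and 44.7 after in C57xSPRET.

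**Figure D5:**
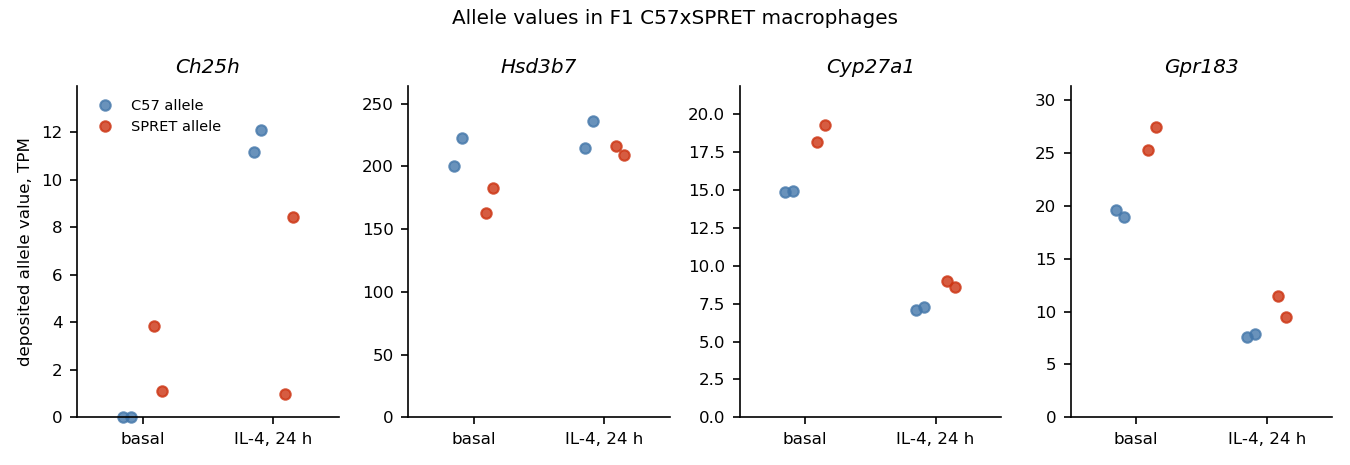
Allele values in F1 C57xSPRET BMDMs for Ch25h, Hsd3b7, Cyp27a1 and Gpr183 under basal conditions and after 24 h of IL-4, in the deposited allele units, with 1 point per library and allele. The C57 allele of Ch25h goes from 0 to 11.2 and 12.1, the SPRET allele of the same libraries is at 0.978 and 8.45 after IL-4, and the C57 share of the other genes lies between 39.8% and 55.1%.

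Other genes of sterol and oxysterol handling were read from a list of 77, of which 62 were tested in each table. After 24 h of IL-4, 1 rose and 2 fell in C57, 0 and 1 in BALB, 0 and 0 in NOD, 0 and 1 in PWK, and 2 and 3 in SPRET, or 4.84%, 1.61%, 0%, 1.61% and 8.06% of the list, beside the shares of all genes given above. Osbpl3, a member of the oxysterol-binding protein family, fell in C57 (−1.99, adjusted p = 2.3e-15), BALB (−1.66, 2.2e-13) and SPRET (−1.05, 5.9e-10). Apoc2, an apolipoprotein and LXR target, fell in C57 (−1.22, 7.3e-06) and PWK (−1.20, 7.4e-05). In SPRET, Pltp, a phospholipid transfer protein, fell by 1.37 (1.5e-18), and Scd1, a fatty acid desaturase, rose by 1.15 (5.4e-10). The remaining ones were named after their values were seen, namely Soat2, which esterifies cholesterol and rose by 1.08 in C57, Scd2, which rose by 1.29 in SPRET, and Nr1h3, the gene of LXR alpha, which fell by 1.14 in SPRET.

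The 12 LXR target genes tested had median log2 differences with IL-4, in the order C57, BALB, NOD, PWK, SPRET, of −0.10, 0.04, 0.21, 0.10 and 0.35, beside −0.04, −0.11, 0.12, 0.08 and 0.11 over all genes. The 17 tested genes of SREBP2 and its targets had medians of −0.52, −0.10, 0.08, −0.09 and 0.32, with no member past the threshold in any strain. Over time, 3 of these 17 fell in C57 at 24 h (17.6%, against 5.76% of all genes), with a median of −0.72. The strain with the lowest basal Cyp27a1 and Gpr183, NOD, had 1 of the 12 LXR targets above and 10 below C57 under basal conditions (91.7% called, against 16.9% of all genes, with a median of −1.56 against −0.30). PWK had 0 above and 5 below, SPRET 4 above and 3 below, and BALB 0 above and 1 below. The SPRET pattern differed in the time course. Basal SPRET minus C57 there was −2.12 for Apoe and 2.72 for Scd1, against 1.35 and −0.18 in the 5-strain table. Apoc2 (−2.94 against −2.30), Pltp (0.84 against 1.31) and Mylip (−0.34 against −1.28) kept direction. Apoe and Mylip were named after their values were seen, and this difference between tables was not tested. In the 5-strain table SPRET, highest in basal Ch25h, Cyp27a1 and Gpr183, had 12 of the 17 SREBP2 genes above C57 and 0 below (70.6% called, against 18.1% of all genes, with a median of 1.23 against 0.02). BALB had 8 above and 0 below, PWK 3 above and 0 below, and NOD 0 above and 5 below. Over the whole list, 9 were above and 1 below C57 in BALB, 3 and 18 in NOD, 6 and 6 in PWK, and 21 and 9 in SPRET.

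In the time course none of the 62 passed the threshold at 1 or 6 h in C57, and 1 rose and 7 fell at 24 h, or 12.9% beside 5.76% of all genes. In SPRET none passed it at 1 h, 0 rose and 1 fell at 6 h (1.61%, beside 4.57%), and 3 rose and 2 fell at 24 h (8.06%, beside 5.62%). Between genotypes, all genes of the list past the threshold were LXR targets, with Apoe above Egr2WT by 2.31, 2.42, 2.36 and 2.49 at basal, 1, 6 and 24 h (named after its values were seen) and Apoc2 by 1.37, 1.09 and 1.42 at basal, 6 and 24 h. At 24 h Pltp was higher by 1.31 and Scd1 lower (−1.35). Over the list, 2 were higher and 0 lower at basal (3.23%, beside 0.853% of all genes), 1 and 0 at 1 h (1.61%, beside 1.06%), 2 and 0 at 6 h (3.23%, beside 2.30%), and 4 and 1 at 24 h (8.06%, beside 4.55%).

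The genes most like Ch25h over the 10 group means of the 5-strain table were Fcgr2b (r = 0.962), the inhibitory Fc receptor, Ffar2 (0.933), a receptor of short-chain fatty acids, and Cwc15 (0.902). Fcgr2b means went from 86.1 to 311 TPM with IL-4 in C57, 79.8 to 149 TPM in BALB, 103 to 107 TPM in NOD, 204 to 411 TPM in PWK and 170 to 440 TPM in SPRET, so BALB and NOD were the lowest after IL-4, as for Ch25h. Over the 8 group means of the time course the leading genes were Nfil3 (0.950), a transcription factor gene, 4921524J17Rik (0.924) and Ripk2 (0.913). Fcgr2b had r = 0.517 with Ch25h there, Ffar2 0.405 and Cwc15 0.262. In the 5-strain table Nfil3 had r = 0.651 with Ch25h, Ripk2 0.764 and 4921524J17Rik −0.305. By Spearman rho over the 10 groups of that table, Fcgr2b ranked 2 in likeness to Ch25h, Ffar2 533 and Cwc15 637. Among the 5 genes themselves, Gpr183 had r = 0.518 with Ch25h and ranked 1581 of 11906 genes, and Cyp27a1 with Gpr183 had r = 0.730. The genes most like Gpr183 were Emilin2 (0.952), Lrrc8b (0.950) and Kyat1 (0.946), and those most like Cyp27a1 were Eno1b, Nudt14 and Adamts10 (each 0.986). Barx2 (0.995), Klrb1b (0.993) and Fbp1 (0.980) led for Cyp7b1, where SPRET after IL-4 sets the value. Hsd3b7 was most like Itpr2 (0.970), Sel1l3 (0.956) and Fkbp9 (0.953), of which Itpr2 had r = −0.77 with it in the time course. These correlations run over group means that share strains and libraries, and are descriptions.

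Markers of other cells also varied with strain and IL-4. The 8 neutrophil and precursor markers summed to 552 to 558 TPM in the basal PWK libraries, 344 to 404 TPM in SPRET, 106 to 131 TPM in C57, 53.0 to 60.0 TPM in BALB and 40.9 to 52.7 TPM in NOD, so PWK and SPRET, the highest in basal Ch25h, were the highest here too. After IL-4 the sum was 551 to 601 TPM in PWK and lower than at basal in C57 (16.8 to 24.4 TPM), BALB (18.1 to 19.8 TPM), NOD (15.2 to 18.9 TPM) and SPRET (249 to 274 TPM), where Ch25h was higher. Most of the sum was S100a8 and S100a9, and the defining marker Ly6g did not exceed 0.276 TPM. Fibroblast markers summed to 202 to 210 TPM in basal PWK libraries and 105 to 112 TPM after IL-4, against at most 16.7 TPM in the other strains, almost all of it Dcn, and the collagen genes Col1a1, Col1a2 and Col3a1 did not exceed 0.066 TPM. The part of such cells in the levels above was not tested.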

How the data were processed

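Poly(A) RNA of BMDMs was sequenced as single-end reads of 75 bases. The authors mapped the reads with STAR to strain-specific genomes, moved the coordinates to mm10 with MMARGE, and counted exons per gene with HOMER (the submitters' notes name STAR, HOMER and DESeq2). The deposited tables of the 5 strains, the time course and the Egr2 libraries hold TPM per gene, together with the authors' own DESeq2 comparisons, which were not used. The listed TPM of a library sum to 602020 to 690215. The deposited F1 tables hold a value per allele. Depth was about 7020000 to 22500000, 5700000 to 24000000 and 4690000 to 32900000 tags per library in the 3 tables, as given in the file headers, and the tables hold no counts.

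Each table was analysed on its own. Genes that reached 1 TPM in 2 or more libraries were kept (11907, 12088 and 12079), TPM were turned to log2(TPM + 1), and limma 3.58.1 in R 4.3.3 was fitted with 1 mean per group and a trended prior, on all libraries of the table. The filter kept 5, 4 and 4 of the genes described. P-values were adjusted over all genes tested, and rising or falling means over 2-fold with an adjusted p below 0.05. The fit was tested on simulated data. Alternatives were the pseudocount (0.1 and 5 TPM), the filter, median-ratio scaling, quantile normalization, a robust prior, the groups of the comparison alone, the replicate number as a block, and each library left out. F1 values were not tested.

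The members, the list of 77 sterol genes, the motifs and the marker lists were chosen with earlier results of these data known, and are not independent support. Genes beside the members were named as the 3 with the highest Pearson r to a member over group means, or, up to 3 per class of the list, as past the threshold in at least 3 strains, at 2 or more times in C57 or SPRET, or between Egr2 genotypes. Any other gene is marked in the text, except Arg1, read as a check of the labels. Gene positions and overlaps were read from GENCODE annotation of mm10, and promoters from RefSeq. Python 3.11.15, pandas 2.3.3 and matplotlib 3.10.9 were used.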

Additional observations from a re-analysis of the deposited data

Results flagged for a closer look

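The Ch25h response to IL-4 differed between strains by a test of the difference itself. Minus the response in C57, it was −2.75 in BALB, −2.86 in NOD and −1.43 in SPRET at 24 h in the 5-strain libraries. In the time course, SPRET minus C57 was −2.06 at 6 h and −3.04 at 24 h. These values are log2 differences of the change in TPM + 1. With a pseudocount of 5 TPM, the 24 h SPRET value in the 5-strain libraries was −0.50, under 2-fold.

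Gpr183 allele values were lower after IL-4 in F1 C57xSPRET BMDMs, while its TPM was higher after IL-4 in inbred BMDMs. The log2 of the mean allele value after 24 h of IL-4 over that before was −1.24 in C57xNOD, where 1 of the 2 IL-4 libraries was listed at 0 and the value without it was −0.24, and −1.32 in C57xSPRET. Both F1 basal libraries of C57xSPRET were above both IL-4 libraries, while every inbred C57, NOD and SPRET library after IL-4 was above its basal group. In C57xNOD, the IL-4 library with values was at 9.45 and the basal libraries were at 9.80 and 12.5. Allele values cannot be set beside TPM, as given above, so only directions are given, and the difference in direction was not tested.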

How the results depend on the processing

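The pseudocount moved the counts most. With 5 TPM, 4 of the tests after 24 h of IL-4 in the 5 strains were past the threshold in place of 8, and 2 between strains under basal conditions in place of 7. With 0.1 TPM, 6 of the 24 h responses differed from that in C57 in place of 3, among them Cyp7b1 in SPRET (2.11). At this setting Cyp7b1 in SPRET was also among the 10 calls after IL-4 (2.27) and the 10 at basal (1.17). Cyp7b1 passed the filter only through its SPRET IL-4 libraries, so these calls are no support. By construction, a pseudocount of 5 TPM shrinks differences between values near or under it. Over all settings that kept every library, pseudocounts included, the counts ranged from 4 to 10 after IL-4, 2 to 10 between strains at basal, 2 to 6 for the responses against C57, 7 to 11 in the time course and 8 to 12 in the Egr2 libraries, and stayed at 2 for the SPRET responses and at 0 for both comparisons of the genotypes. With 1 library left out, the ranges were 7 to 8, 6 to 7, 3 to 4, 7 to 10 and 11 to 12, and again 2 and 0.

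Among single genes, 2256 alternatives kept the side of the threshold, 25 lost the call and 20 gained it. Another 2 turned direction with an adjusted p below 0.05 in the main fit or the alternative. A turn of direction without such a p was sorted by the side of the threshold alone. The difference of the Ch25h response in PWK from that in C57 was 0.039 with a pseudocount of 5 TPM (adjusted p = 0.83) in place of −0.69. Hsd3b7 in NOD minus C57 under basal conditions was 0.34 with median-ratio scaling (5.3e-07) in place of −0.06. The cause of the second was not tested, and the median of all genes in that comparison was −0.30 on the scale as deposited. With 5 TPM, Ch25h in BALB (0.44) and NOD (0.49) after IL-4 also fell short of 2-fold, as did its basal excess in PWK (0.53) and SPRET (0.75), Gpr183 after IL-4 in C57 (0.53) and BALB (0.76), Gpr183 at basal in BALB (0.59) and NOD (−0.39), and Cyp27a1 at basal in NOD (−0.93). At this setting the 24 h Ch25h response of SPRET minus that of C57 in the 5-strain libraries was −0.50, also under 2-fold. Gpr183 in NOD minus C57 at basal was −0.96 and −0.91 with median-ratio scaling and quantile normalization, under 2-fold. Of 22 allele shares, 5 moved when 1 was added to each allele value.

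Whether replicate numbers pair the libraries of a strain or genotype was not decided. Deviations from group means of libraries with the same number had a mean correlation of 0.013 for the 5 strains, 0.030 over the time course and −0.0046 for the Egr2 libraries. These means run over 126, 56 and 56 pairs, which include pairs across strains or genotypes, so pairing within a strain or genotype would be diluted. Single pairs ranged from −0.134 to 0.333, −0.143 to 0.266 and −0.139 to 0.057 in the same order. With the replicate block, which takes the number across all groups, the counts were 8, 7, 3, 9, 2, 0, 11 and 0, as without it.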
